A study of Mus musculus with 6 samples.

Results

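The BRCA and Fanconi core genes are 9 genes of DNA repair, Brca1, Brca2, Palb2, Bard1, Fanca, Fancc, Fancd2, Fanci and Fancm. They were taken by symbol from a table of 11644 genes, and all 9 were present. The table came from mouse MLL-ENL/NrasG12D cells, a myeloid leukemia line that carries a fusion of MLL with ENL and the activated G12D form of Nras. All 6 libraries came from that line: 3 from cells given the PRMT5 inhibitor EPZ015666 at 5 µM and 3 from cells given only its solvent, DMSO, for 72 h with a repeat of the treatment on day 2. PRMT5 places symmetric dimethyl marks on arginines of histones, splicing factors and other proteins, and EPZ015666 blocks its enzyme activity. The comparison asks how these transcripts differ when PRMT5 is inhibited. The series calls the libraries independent replicates without saying what was repeated, so p-values measure the spread between these libraries, which may be technical.

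The proteins of these genes act in 1 chain of repair. When a crosslink between DNA strands stalls a replication fork, the translocase FANCM anchors the Fanconi core complex, which holds FANCA and FANCC and attaches ubiquitin to the paired proteins FANCD2 and FANCI. Broken DNA is then passed to homologous recombination: BRCA1 with its partner BARD1 prepares the break, PALB2 ties BRCA1 to BRCA2, and BRCA2 prepares the strand for invasion of an intact copy. Inherited loss of Fanconi genes causes bone marrow failure and a high risk of myeloid leukemia. Inherited defects of BRCA1 or BRCA2 raise the risk of breast and ovarian cancer.

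Libraries held 11335948 to 19197912 reads assigned to genes, fewest in inhibitor library 2. Across genes, which are not independent replicates, log2 values correlated at 0.987 to 0.992 within groups and at 0.951 to 0.962 between them. No 2 libraries of a group were alike within sampling noise (chi-square per degree of freedom 9.43 to 20.7). The inhibitor acts on the PRMT5 enzyme, so no transcript level checks the inhibition.

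Sequence before the RefSeq start of 4 of these genes is shown because the genes moved in the same direction by very different amounts. Brca2 and Fancc fell most, Bard1 lies between, and Brca1 fell little. RefSeq windows on GRCm38.p6, the assembly behind mm10, were matched by symbol for 8 of the 9 genes, all but Fancd2. The 250 bases before the RefSeq start were searched on both strands for TTTNNCGC (a match to the E2F site), CCAAT (the NF-Y box), CCGGAA (the core ETS site), GGGCGG (the SP1 site) and TTTGAA (the CHR element of cell cycle genes). Matches to TTTNNCGC and CCAAT stand in capitals. No match to CCGGAA falls in a printed stretch. The match found for Brca1 starts at base -243 and those for Bard1 at bases -46 and -44, in parts of the 250 bases not shown. Each stretch runs 5′ to 3′ on the strand of the gene and is limited to bases outside exons annotated in GENCODE M21. The Brca2 stretch is chr5:150522371-150522620 on the plus strand and the Fancc stretch chr13:63431746-63431995 on the minus strand. The Bard1 stretch is chr1:71103147-71103222 and the Brca1 stretch chr11:101551956-101552148, both on the minus strand. RefSeq and GENCODE starts differ for some genes: the Fancc stretch lies inside the longer GENCODE span of Fancc given below, and the GENCODE start of Bard1 lies within the 250 bases searched.
Brca2: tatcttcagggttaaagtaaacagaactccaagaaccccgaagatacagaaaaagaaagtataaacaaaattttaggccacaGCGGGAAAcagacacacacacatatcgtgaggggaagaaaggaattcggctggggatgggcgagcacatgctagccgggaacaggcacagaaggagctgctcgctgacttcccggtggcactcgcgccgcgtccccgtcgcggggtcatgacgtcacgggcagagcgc
Fancc: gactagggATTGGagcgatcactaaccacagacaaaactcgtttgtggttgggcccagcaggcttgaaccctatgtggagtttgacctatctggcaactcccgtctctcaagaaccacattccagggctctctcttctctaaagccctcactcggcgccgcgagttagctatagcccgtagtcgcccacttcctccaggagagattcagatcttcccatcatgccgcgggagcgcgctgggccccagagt
Bard1: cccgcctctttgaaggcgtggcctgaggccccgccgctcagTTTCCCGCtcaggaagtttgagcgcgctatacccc
Brca1: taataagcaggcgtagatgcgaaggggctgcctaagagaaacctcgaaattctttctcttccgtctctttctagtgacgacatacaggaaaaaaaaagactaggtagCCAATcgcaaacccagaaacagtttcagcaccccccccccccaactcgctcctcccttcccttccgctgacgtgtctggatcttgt

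No motif was present in all 8 windows. The E2F match was present in 2 of the 8 windows, those of Brca2 (bases -168 to -161 before the start) and Bard1 (-209 to -202), against 7.53% of the windows of 9095 genes of the table and 4.28% of all 32851 windows. CCAAT was present in 4 of 8 (Brca1, Fanca, Fancc and Fancm) and CCGGAA in 4 of 8 (Brca1, Palb2, Bard1 and Fancm), against 37.2% and 24% of table genes. GGGCGG was present in 5 of 8 (59.9% of table genes) and TTTGAA in 1 of 8, that of Bard1 (10.6%). Of the table genes with a window that were called lower with the inhibitor, 7.88% held the E2F match, and of those called higher 5.57%. In the same order the shares were 38.5% and 35.7% for CCAAT and 22.5% and 21.9% for CCGGAA. They were 64.3% and 58.3% for GGGCGG and 11.6% and 11% for TTTGAA. A match of letters is a description and not a bound site.

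With the inhibitor 7 of the 9 genes fell and none rose, at a limma adjusted p under 0.05 taken over all genes of the table. Of all 11644 genes, 22.9% were called lower and 23.6% higher. All 9 genes had a lower mean with the inhibitor, and for 8 of them the inhibitor and DMSO libraries did not overlap, against 27.9% of all genes that were lower without overlap. Log2 fold changes, which compare the normalized count plus 1, ran from -1.89 for Brca2 to -0.20 for Fancm with a median of -0.47, beside 0.00 over all genes. In bulk RNA, fewer cells that express a gene and less RNA per cell cannot be told apart.

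**Figure D1:**
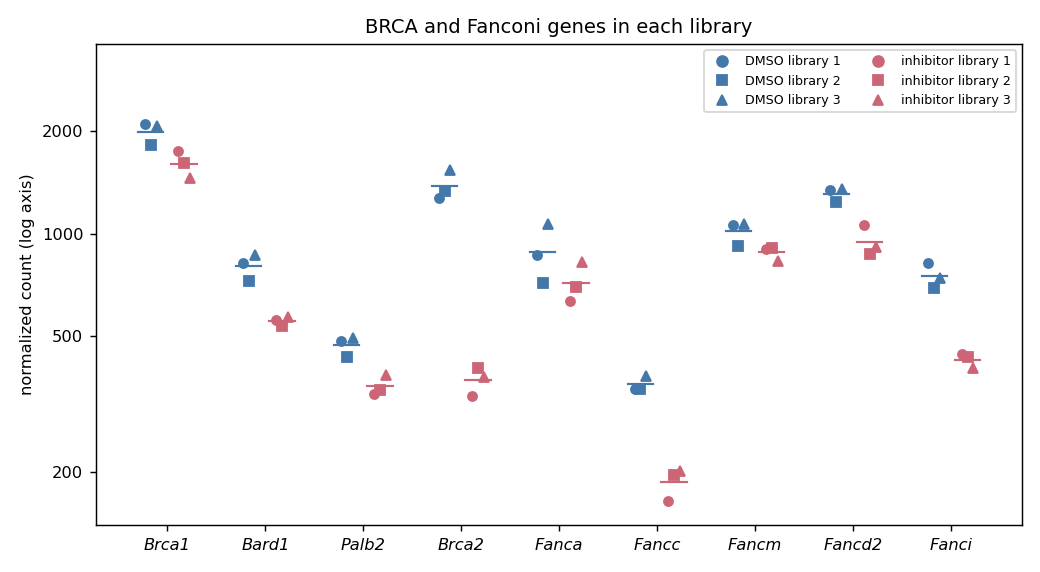
Normalized counts of the 9 genes on a log axis, with 1 point per library (blue for DMSO, red for inhibitor) and a line at the mean of each group of 3. Brca2 shows the widest gap between the groups, and Fanca is the gene whose groups overlap.

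Brca2 (chromosome 5, 150522630 to 150570329, plus strand in GENCODE M21 on mm10), a central mediator of homologous recombination, stood apart from the other 8. Its normalized counts, read counts scaled for library depth, were 1269, 1334 and 1534 in DMSO libraries 1 to 3 and 335.0, 402.7 and 378.8 in inhibitor libraries 1 to 3. The highest inhibitor library lay 68.3% below the lowest DMSO library. The mean went from 1379 ± 138 to 372 ± 34.3 (SD, n = 3 per group), 26.99% of the DMSO level, with a 95% interval of the log2 change from -2.11 to -1.66 (limma adjusted p = 1.38e-07). By this log2 change Brca2 was the 51st lowest of 11644 genes. The values rest on 1557 to 1653 reads per library in DMSO and 288 to 352 with the inhibitor.

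Palb2 (chromosome 7, 122107262 to 122132985, minus strand), the bridge between BRCA1 and BRCA2, fell far less. It had 485.1, 434.3 and 492.9 normalized counts in the DMSO libraries and 339.1, 348.2 and 386.3 in the inhibitor libraries. The groups did not overlap, with the highest inhibitor library 11.0% below the lowest DMSO library. Its mean dropped to 76.0% of DMSO, a log2 change of -0.39 ± 0.10 (SE, limma adjusted p = 0.00729).

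Brca1 (chromosome 11, 101488764 to 101551955, minus strand), the ubiquitin ligase subunit that acts early at breaks, gave 2095, 1820 and 2064 normalized counts in DMSO and 1743, 1615 and 1457 with the inhibitor. The lowest DMSO library and the highest inhibitor library were only 4.23% apart. The fall from 1993 ± 151 to 1605 ± 143 (SD, n = 3 per group; log2 change -0.31 ± 0.09 SE) passed the test (limma adjusted p = 0.0155). Removal of any of 4 libraries ended this call: the limma adjusted p was 0.0619 with DMSO library 1 removed, 0.0592 with DMSO library 3, 0.0503 with inhibitor library 2 and 0.0520 with inhibitor library 3. Bard1 (chromosome 1, 71027498 to 71103146, minus strand), the RING partner that stabilizes BRCA1, fell more clearly. It went from 818.6, 724.9 and 868.9 in the DMSO libraries to 558.8, 537.0 and 568.2 in the inhibitor libraries. These inhibitor values lay close together, 21.6% or more below every DMSO library, and the log2 change was -0.53 ± 0.09 (SE, limma adjusted p = 6.99e-04).

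Within the Fanconi core complex, Fancc and Fanca behaved differently. Fancc (chromosome 13, 63285043 to 63497278, minus strand), a bridging subunit of the complex, had 351.4, 350.4 and 383.9 normalized counts in DMSO and 164.5, 195.8 and 201.2 with the inhibitor. Every inhibitor library was at least 42.6% below every DMSO library. Its mean was 51.7% of DMSO (log2 change -0.95 ± 0.12 SE, limma adjusted p = 5.99e-05), the second largest fall of the 9 and the 459th lowest log2 change of the table. It was the least abundant member by reads, with 140 to 187 reads in an inhibitor library, so counting error weighs more on it than on the others.

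Fanca (chromosome 8, 123268300 to 123318576, minus strand), a scaffold subunit of the core complex, did not pass. Its DMSO values of 865.9, 717.7 and 1066 were the most spread of any member and overlapped the inhibitor values of 633.3, 697.8 and 825.4. The log2 change was -0.29 with a 95% interval from -0.59 to 0.02 (limma adjusted p = 0.112), so neither no change nor a fall as large as that of Bard1 lies outside it. Fancm (chromosome 12, 65075603 to 65132058, plus strand), the translocase that recruits the complex to DNA, had 1064, 918.7 and 1067 in DMSO and 901.0, 908.9 and 834.0 with the inhibitor. Those groups were separated by 1.06% of the lowest DMSO library, and the log2 change of -0.20 (95% interval -0.40 to -0.01) did not pass after adjustment (limma adjusted p = 0.0814). Both genes passed without DMSO library 2, Fanca at -0.43 (limma adjusted p = 0.0112) and Fancm at -0.27 (0.0266). All 9 members were then called lower, beside 2595 of all 11644 genes. That library was the lowest DMSO library for 8 of the 9 genes, so leaving it out raises their DMSO means.

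The paired substrates of the core complex both fell, by unequal amounts. Fanci (chromosome 7, 79391929 to 79450264, plus strand) stood at 818.6, 692.6 and 741.3 normalized counts in DMSO and at 444.3, 436.3 and 402.5 with the inhibitor. All inhibitor libraries lay at least 35.8% below the DMSO libraries, and the mean was 57.0% of DMSO (log2 change -0.81 ± 0.10 SE, limma adjusted p = 4.63e-05). Fancd2 (chromosome 6, 113531682 to 113597017, plus strand), whose ubiquitinated form marks active Fanconi repair, had 1339, 1239 and 1349 in DMSO and 1061, 869.8 and 914.7 with the inhibitor. The groups were 14.4% apart at their nearest, and the mean was 72.5% of DMSO (log2 change -0.47 ± 0.09 SE, limma adjusted p = 0.00156).

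**Figure D2:**
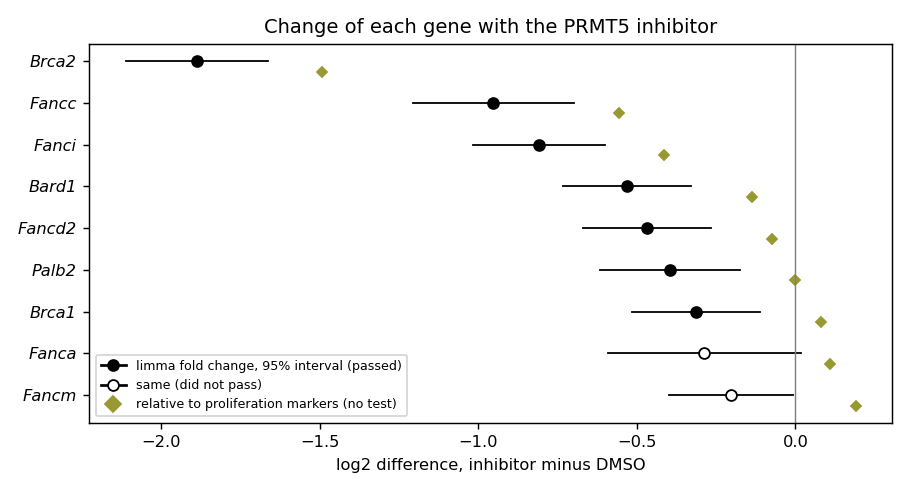
Log2 change of each gene with the inhibitor against DMSO, with the 95% interval of the limma fit (filled circles passed at an adjusted p under 0.05, open circles did not) and, as diamonds, the change relative to the median of 20 proliferation markers in the same library. Brca2 at -1.89 lies left of all other intervals, and after the comparison with the markers it remains at -1.49 while Brca1, Fanca and Fancm lie to the right of 0. The marker median itself changed by -0.39, so the diamond of a gene without change would also lie to the right of 0.

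DMSO library 2 was the lowest DMSO library for 8 of the 9 genes, with Brca2 the exception, and lay below the mean of the other 2 DMSO libraries for all 9 (median log2 difference -0.17, against -0.01 over all genes). DMSO library 3 was the highest for 7 of the 9. Among the inhibitor libraries no such order was seen: each was the lowest for 2 to 4 of the genes and the highest for 2 to 4. The order in DMSO is not particular to the members. The median log2 level of the proliferation markers was also lowest in DMSO library 2, at 12.11 against 12.37 in library 1 and 12.25 in library 3. How many of all genes were lowest or highest in each library was not counted. With each library left out in turn, the calls of Brca1, Fanca and Fancm changed as given above, and the other 6 genes passed every time.

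Partner genes were also compared as log2 ratios within a library, which do not depend on how libraries are scaled. The Brca2 to Palb2 ratio was 1.39, 1.62 and 1.64 in the DMSO libraries and -0.02, 0.21 and -0.03 in the inhibitor libraries. Brca2 thus gave about as many reads as Palb2 with the inhibitor, where DMSO libraries had far more. The group means differed by -1.49, with an SD within groups of 0.14 and 0.13 (n = 3 per group). An exact two-sided permutation test of 3 against 3 cannot give a p under 0.10, the value found here, and adjusted over the 4 pairs the exact p was 0.133.

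The other complexes shifted less. Fancd2 to Fanci went from 0.80 ± 0.08 to 1.14 ± 0.13 (SD, n = 3 per group, log2 ratio; exact permutation p = 0.10, adjusted 0.133) and Brca1 to Bard1 from 1.31 ± 0.06 to 1.53 ± 0.15 (same exact p), both without overlap. In each of these pairs the more abundant partner lost less. Fanca to Fancm overlapped between the groups, -0.22 ± 0.19 and -0.30 ± 0.26 (exact permutation p = 0.50).

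Of the 9 starts, 3 lie back to back with the start of another gene that was measured. Nbr1, an autophagy receptor gene, starts 194 bases from Brca1, Dctn5, of the dynactin complex, 56 bases from Palb2, and Emc3, of a membrane protein insertase, 30 bases from Fancd2. None of the 3 neighbours passed the test: Nbr1 had a log2 change of -0.04 (95% interval -0.21 to 0.14, limma adjusted p = 0.732), Emc3 -0.06 (-0.23 to 0.12, 0.583) and Dctn5 0.21 (-0.01 to 0.43, 0.106). Within libraries the Palb2 to Dctn5 log2 ratio was -0.62, -0.65 and -0.43 in DMSO and -1.20, -1.07 and -1.25 with the inhibitor. Fancd2 to Emc3 differed by -0.41 and Brca1 to Nbr1 by -0.28 between the group means. In all 3 pairs the groups did not overlap, and the repair gene was the lower partner relative to DMSO. These ratios restate the falls given above, set against neighbours that did not pass, and are not separate evidence. Ratios to other genes were not compared.

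**Figure D3:**
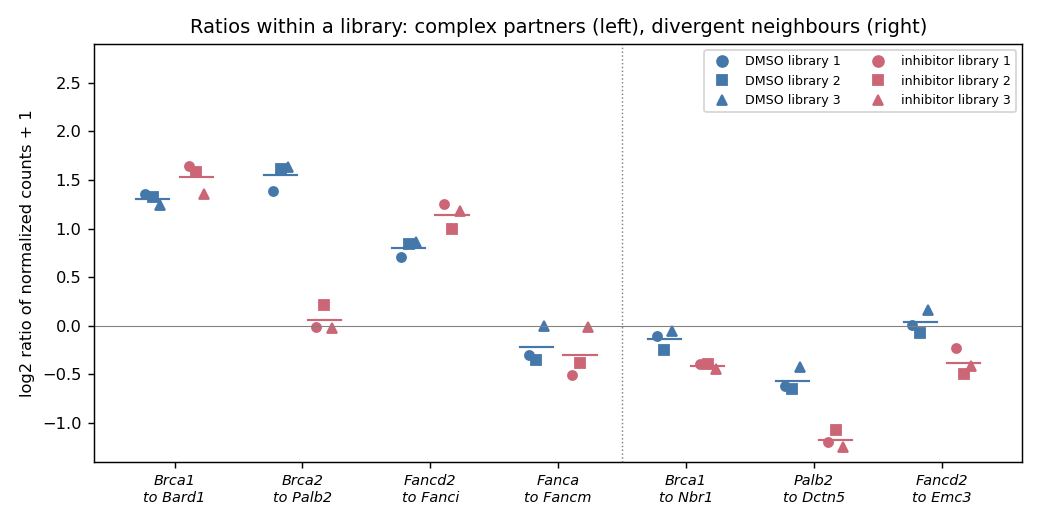
Log2 ratio of the normalized counts of 2 genes in the same library, for 4 pairs of complex partners (left of the dotted line) and for 3 pairs of a repair gene with the gene that starts next to it on the other strand (right). Points are libraries, blue for DMSO and red for inhibitor, and lines are group means. The groups are apart in 6 of the 7 pairs, most for Brca2 to Palb2, and overlap for Fanca to Fancm.

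Levels between genes were compared as normalized counts per kilobase of the longest coding transcript. In DMSO, Brca1 was highest at 303 ± 22.9 per kilobase, followed by Fancd2 at 238 ± 11.0 and Fanca at 197 ± 39.0. Then came Fanci (162 ± 13.7), Bard1 (142 ± 12.9), Fancm (131 ± 10.9), Brca2 (129 ± 12.8), Palb2 (126 ± 8.48) and Fancc (114 ± 6.02; SD, n = 3). Apart from Brca1 and Fancd2, neighbours in this order had overlapping libraries and are not told apart. With the inhibitor Brca2 was last, at 34.7 ± 3.20, below Fancc at 59.1 ± 6.27, with no overlap between these 2 genes. Fanci stood at 92.1 ± 4.78 with the inhibitor, and its libraries overlapped those of Palb2 (95.4 ± 6.68) and Bard1 (98.0 ± 2.83).

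These genes have many exons, a feature not used in choosing them. By the longest coding transcript in GENCODE, 6 of the 9 have at least 20 exons (Fancd2 44, Fanca 43, Fanci 38, Brca2 27, Brca1 and Fancm 23), while Fancc has 16, Palb2 13 and Bard1 11. Among all 1606 table genes of at least 20 exons, 28.9% were called lower and 18.9% higher, with a median log2 change of -0.06. From most to fewest exons, the log2 changes were -0.47 for Fancd2, -0.29 for Fanca, -0.81 for Fanci and -1.89 for Brca2. They were -0.31 for Brca1, -0.20 for Fancm, -0.95 for Fancc, -0.39 for Palb2 and -0.53 for Bard1. Brca2 has the longest coding transcript of the 9, at 10724 bases, longer than that of 98.4% of the matched genes. Its gene span, 47700 bases, is shorter than that of every other member but Palb2. Fancc has the longest gene span, at 212236 bases, but the shortest coding transcript, at 3165 bases. Fancm, with the longest transcript after Brca2 (7775 bases), had the smallest fall. Whether exon number or length bears on the falls was not tested.

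Some members share bases with genes on the other strand, and the strand setting of the counting is not given in the sources used here. Fanci overlaps Polg, the mitochondrial DNA polymerase gene, by 4034 bases, and Polg also fell (1348 ± 103 to 862 ± 68.3, limma adjusted p = 1.71e-04). Fancc overlaps 2010111I01Rik over 41054 bases, and that gene rose (1215 ± 158 to 1867 ± 328, limma adjusted p = 0.00220). Fanca overlaps Zfp276 by 1446 bases, which did not pass (455 ± 29.5 and 530 ± 75.6, limma adjusted p = 0.143). How far shared reads move these 3 members was not tested.

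Beyond the 9 members, 72 other genes of crosslink repair and homologous recombination were listed, and all were measured. Of these, 38 fell, 4 rose and 30 did not pass, with a median log2 change of -0.28. Over all genes 22.9% were called lower and 23.6% higher, shares that also apply to each list below. The rises numbered 2 without DMSO library 2 or without DMSO library 3. The 4 that rose were Rev1, Shfm1, Swi5 and Trp53bp1, of which Swi5 and Trp53bp1 are named because the count is small.

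Among 13 other genes of the Fanconi core complex and its ubiquitin enzymes, 8 fell and none rose, with a median of -0.43. The core subunit Fance had the smallest adjusted p (335 ± 28.2 to 200 ± 13.1 normalized counts, limma adjusted p = 2.94e-04). Stra13, the table's name for Cenpx, which works with FANCM, went from 430 ± 57.3 to 250 ± 33.1, and the core subunit Fancg from 333 ± 26.9 to 207 ± 23.3 (limma adjusted p = 5.90e-04 and 7.01e-04). Transcripts of several core subunits besides Fancc were thus lower, while 5 of the 13 genes did not pass. The 8 falls also include Usp1 and Wdr48, which are on the list for ubiquitin handling and not as core subunits. Levels of the complex itself were not measured.

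Of the 9 partner proteins of BRCA1 and BRCA2, 5 fell and 1 rose. Shfm1, the table's name for the small BRCA2-binding subunit Sem1, rose against the direction of Brca2, from 2148, 1956 and 1952 normalized counts to 3348, 3679 and 2985 (limma adjusted p = 7.98e-05). The product of Sem1 is also part of the proteasome. Bre (589 ± 19.95 to 358 ± 30.9) and Babam1 (1148 ± 12.7 to 838 ± 48.2), of the BRCA1-A complex, fell (limma adjusted p = 1.19e-04 and 7.72e-04). The helicase Brip1 (1335 ± 132 to 936 ± 107) and the resection factor Rbbp8 (1726 ± 143 to 1463 ± 60.4) fell as well (limma adjusted p = 0.00187 and 0.0379).

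Mediators of strand exchange gave 8 falls and 1 rise among 16 genes, with a median of -0.24. The motor Rad54l (860 ± 87.6 to 536 ± 12.9 normalized counts) and the annealing factor Rad52 (264 ± 6.94 to 142 ± 17.5) fell (limma adjusted p = 1.59e-04 and 1.66e-04).

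Nucleases and bypass polymerases moved in both directions: 6 of 12 fell and 1 rose. Rev1, a bypass polymerase, rose from 860 ± 76.1 to 1768 ± 135 normalized counts (limma adjusted p = 5.70e-06), while Rev3l, the catalytic subunit of its partner polymerase, fell from 1018 ± 140 to 639 ± 68.0 and the nuclease Dclre1b from 524 ± 10.9 to 404 ± 26.2 (limma adjusted p = 5.87e-04 and 0.00585). In break sensing and resection 5 of 12 fell and none rose, led by Rad50 (2796 ± 92.5 to 1597 ± 183), Rmi2 (410 ± 26.4 to 217 ± 12.7) and Rmi1 (445 ± 20.6 to 363 ± 11.0), the last 2 of the complex that dissolves crossed strands (limma adjusted p = 3.35e-05, 3.91e-05 and 0.0239). Of 10 checkpoint and break-site signalling genes 6 fell and 1 rose. Atr, the kinase that responds to stalled forks, went to 51.1% of DMSO (limma adjusted p = 6.63e-06), and the histone variant gene H2afx and the ubiquitin ligase gene Rnf168 fell by 0.54 and 0.49 on the log2 scale (limma adjusted p = 4.25e-04 and 7.41e-04).

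**Figure D4:**
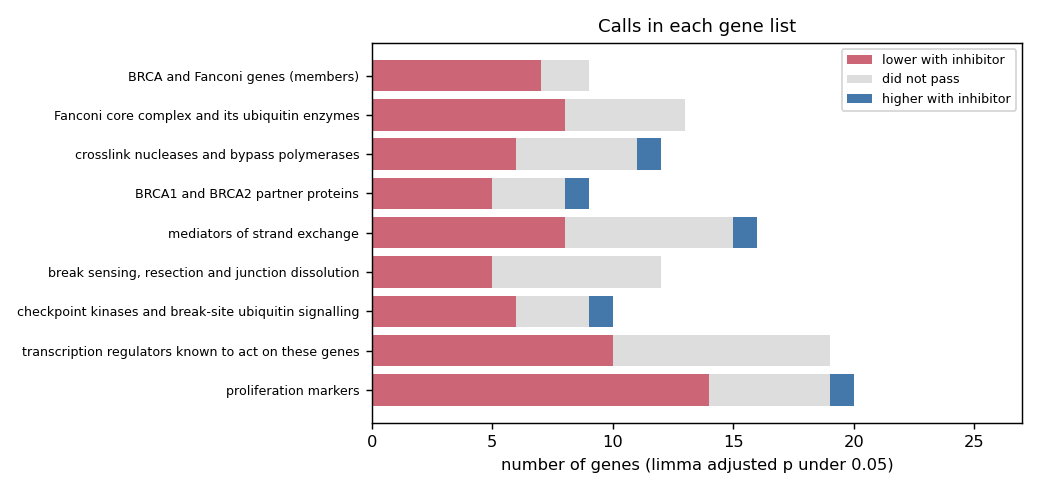
Number of genes in each list that were lower (red), higher (blue) or did not pass (grey) at a limma adjusted p under 0.05. Over all genes 22.9% were lower and 23.6% higher. Each list has more falls than rises, and 4 lists hold no rise: the 9 members, the Fanconi core complex and its ubiquitin enzymes, break sensing and resection, and the transcription regulators.

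Of 19 genes for transcription regulators known to act on repair genes or on cell cycle promoters, 10 fell and none rose. Over all genes 22.9% were called lower and 23.6% higher. E2f8 (1064 ± 82.4 to 626 ± 43.1) and E2f6 (956 ± 54.7 to 711 ± 5.97), both repressors of the E2F family, and the MuvB subunit Lin54 (1370 ± 59.2 to 1041 ± 12.6) had the smallest adjusted p (limma, 5.43e-05, 0.00138 and 0.00142). The activator E2f1 fell at the edge of the test, from 532 ± 75.1 to 427 ± 38.4 (limma adjusted p = 0.0460). Cdk12 and its cyclin Ccnk, whose kinase is known to sustain transcription of long repair genes such as BRCA1 and ATR, did not pass: Cdk12 had 2276 ± 162 and 2264 ± 46.5 (95% interval of the log2 change -0.18 to 0.17, limma adjusted p = 0.958) and Ccnk 197 ± 18.6 and 206 ± 28.8 (-0.24 to 0.35, 0.748).

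Proliferation markers moved with these genes: 14 of 20 fell and 1, Tyms, rose, against 22.9% and 23.6% of all genes. Their median log2 change was -0.37. Tk1 (53.0% of DMSO), Mki67 (39.1%) and Mcm7 (53.4%) had the smallest adjusted p (limma, 5.63e-06, 1.21e-05 and 3.80e-05). Set against the median of the 20 markers in the same library, Brca2 was still lower with the inhibitor by -1.49 on the log2 scale, Fancc by -0.56 and Fanci by -0.41, each without overlap of the groups. Palb2 (0.00), Fancd2 (-0.07), Bard1 (-0.14) and Fanca (0.11) overlapped. Brca1 (0.08) and Fancm (0.19) were higher relative to the markers, without overlap, as their own falls were smaller than that of the marker median. That median changed by -0.39 between the groups, beside a median log2 change of 0.00 over all genes. A gene without change thus lies above 0 on this scale, and the share of all genes without overlap on it was not counted. The differences from the markers are a description, with no test, and the part of proliferation in the falls was not tested.

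Most measured myeloid markers rose in the same comparison. Of 10 listed, 9 were measured and 6 rose, while Cebpa (log2 change -0.54) and Mpo (-1.11) fell. Over all genes 23.6% were called higher and 22.9% lower. The summed level of the 9 markers was 14680 to 15814 normalized counts in DMSO and 22642 to 23152 with the inhibitor, with no marker at 0. Within that sum Itgam went from a mean of 1667 to 6314 and Csf1r from 1235 to 3912. Ptprc, the largest term in DMSO, did not pass (6900 and 6867). The part of these markers in the falls was not tested. For other cell types 2 of 7 T cell markers were measured, with a sum of at most 125 in any library, 1 of 5 B cell markers (at most 28.5), 1 of 5 stromal markers (at most 10.6) and none of 6 erythroid markers. Of 4 endothelial markers 2 were measured, Cdh5 at a mean of 8.72 in DMSO and Pecam1, which myeloid cells also express, at 3240.

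The genes whose pattern over the 6 libraries was most like the mean pattern of the 9 members included Alg6, a glucosyltransferase of N-glycan synthesis (Pearson r = 0.9997 over 6 libraries, 412 ± 29.7 to 277 ± 1.86 normalized counts), Gnb1l (0.9975), the microRNA processing factor Dgcr8 (0.9971) and the zinc finger gene Zfp704 (0.9970). Among 9091 other genes with a mean of at least 100 normalized counts, 734 (8.07%) reached 0.95. The points share libraries and fall in 2 treatment groups, so any gene that fell evenly has a high r. By deviations from the group means, Alg6 (0.995), Phka2 (0.988) and Marf1 (0.984) came first. They are the highest of the 9091 genes, so part of their r comes from that choice. With 2 group means removed from 6 libraries few free values remain, so every r of deviations here, between members too, is only a description. Among the members themselves, Fancc was most like Brca2 by profile (r = 0.99 over 6 libraries) and by deviations (0.86). Fanca was least like Brca2 by profile (0.64) but second by deviations, also at 0.64, where Fancd2 was least like it (-0.52).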

How the data were processed

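Stranded libraries of polyadenylated RNA were prepared with a TruSeq kit, per the labels' protocols. Tools named without a role in the submitters' processing notes are DESeq 1.16.0, HTSeq 0.6.0, TopHat2 2.0.10 and CASAVA 1.8.2, with the build mm10. The authors deposited 1 table of normalized signal, read counts per gene divided by a size factor per library, as worked out from the values: 100% were whole multiples of 1 step per library within 1e-06. Recovered reads were 11335948 to 19197912 per library. Groups came from sample titles.

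All genes entered a limma-trend fit of log2(value + 1) under R 4.3.3 (limma version 3.58.1), two-sided, with Benjamini-Hochberg adjustment over 11644 genes, 4 residual degrees of freedom and no replicate block. The scripts were checked on simulated data. On recovered reads, edgeR 4.0.16 called 5412 genes in place of 5418. DESeq2 1.42.0, limma-voom, other pseudocounts, filters and scalings, a replicate block and leaving out each library were alternatives. Within-library ratios used exact permutation tests. Gene models came from GENCODE M21, matched for 99.3% of genes, and promoters from RefSeq.

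The members and lists were chosen with earlier results of these data known. Named were all members, the 3 called genes of smallest adjusted p in each list, 7 further genes fixed by name, neighbours with starts within 1000 bases on the other strand, and the genes most like the members' mean pattern (5 by profile, 3 by deviation). Motifs, exon numbers, overlaps and ratios to neighbours or markers were chosen after the data had been seen. A few genes that these rules select enter the counts and are not reported here.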

Additional observations from a re-analysis of the deposited data

How the results depend on the processing

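The fall of Brca2, Palb2, Bard1, Fancc, Fancd2 and Fanci passed under all 16 alternatives, with log2 changes for Brca2 from -1.95 to -1.81. No member changed sign. Leaving out 1 library gave 6 to 9 falls among the 9 members in place of 7, 30 to 38 falls and 2 to 3 rises among the 72 companion genes in place of 38 and 4, and 2067 to 2598 falls over all genes in place of 2665. The 2 rises were found without DMSO library 2 or 3. The Brca2 to Palb2 ratio changed by -1.57 to -1.45, Fancd2 to Fanci by 0.28 to 0.41 and Brca1 to Bard1 by 0.16 to 0.30. Fanca to Fancm, from -0.23 to 0.03, had no steady sign. Samples with the same number had correlated deviations of 0.17, 0.05 and 0.20, and those with different numbers -0.159 to -0.003. Each library thus correlated best with its own number. The labels name no pairs, so the main fit used none, and whether the numbers mark pairs is not settled. With the number as a block, 8 members fell, Fanca among them (limma adjusted p = 0.0223), and 2916 genes fell in all. That fit called 5932 genes in either direction, in place of 5418. With counts of 140 to 187 reads in inhibitor libraries, depth limits Fancc most.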
